A study of Mus musculus with 12 samples.

Results

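This comparison set the full combined intervention against control culture: fibroblasts given a retrovirus that carries Mef2c, Gata4 and Tbx5 (MGT), transcription factors of the heart, together with a lentiviral hairpin against Ptbp1 (shPtbp1), and fibroblasts given the control retrovirus alone. The genes described are those with at least 1 CPM (counts per 1000000 assigned reads) in at least 2 of the 4 libraries of the 2 groups. That rule kept 12709 of the 23423 genes in the table, and at its edge Eqtn was kept with 1.002 and 1.09 CPM in the shPtbp1 libraries, while Slc6a12 was not, with 0.99994 and 1.05 CPM in the control libraries. By their labels, the cells of both groups were cardiac fibroblasts of CD1 mice at postnatal day 1.5. They were enriched by magnetic sorting for the surface protein Thy1, plated on gelatin and lysed 3 days after the viruses were added. Marker genes of macrophages and of other cell types were also expressed, as described below. The labels name no engineered allele and mention no selection of transduced cells. The control virus is lacZ in the titles and an empty vector in the other labels, and it is called control here. Each group has 2 libraries. Values of 2 further day 3 groups are given where they part the steps of the intervention: MGT retrovirus alone (MGT), and MGT with a lentivirus carrying a non-targeting hairpin (shNT), 2 libraries each. Fresh fibroblasts and fresh cardiomyocytes of the same age, 2 libraries each, serve as references.

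Direct cardiac reprogramming drives fibroblasts towards a cardiomyocyte-like state with a small set of heart transcription factors and no pluripotent stage. Mef2c is a MADS-box factor of muscle genes, Gata4 a zinc finger factor that binds GATA motifs, and Tbx5 a T-box factor of heart chambers and conduction tissue. Ptbp1 is the polypyrimidine tract binding protein, an RNA-binding repressor of many exons in non-neuronal and non-muscle cells, and it holds its paralog Ptbp2 low by exon skipping that sends the Ptbp2 transcript to decay. The submitters gave the study's purpose as a bulk reference for single-cell work and a search for splicing changes after loss of Ptbp1. The table holds gene levels, so splicing was not analysed here.

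The control and MGT cultures received the retrovirus alone and the hairpin cultures a retrovirus and a lentivirus, per the labels' protocols, so MGT, the lentivirus with its hairpin and the loss of Ptbp1 cannot be told apart in this comparison alone. By the labels, the comparison of shPtbp1 with shNT differs by the hairpin's target only. The RNA levels of the delivered factors in these groups are given below. Both comparisons use the same shPtbp1 libraries. The labels do not say whether the 2 libraries of a group are separate animals or cultures. The p-values therefore measure only the spread between replicate libraries, which may be technical. That spread was estimated over all 12 libraries, those of the fresh cells included, and not from these 4 alone. The 4 libraries held 73199831 to 94005212 assigned reads, and 1 read was worth 0.0106 to 0.0137 CPM. Levels are given as scaled CPM (CPM divided by a library factor), always replicate 1 and then replicate 2. Changes are differences of the group means of log2(scaled CPM + 0.5), which understates the change of low genes. They are given with a standard error (SE) and a p-value from limma, Benjamini-Hochberg adjusted over all 13977 genes tested, and a gene was called when that value was below 0.05. The replicate libraries of a group differed with a median SD of 0.054 log2 units in control and 0.052 with shPtbp1. In the 8 day 3 libraries the first principal component of these genes held 68.2% of the variance and parted both hairpin groups from control and MGT, and the second held 15.6% and parted control and shNT from MGT and shPtbp1.

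Most expressed genes passed the test, and most of the shifts were small. Of the 12709 genes, 4171 rose (32.8%) and 3739 fell (29.4%) with shPtbp1 against control, and 4799 were not called. The median size of the change was 0.21 log2 units in either direction, against 0.12 for MGT and 0.20 for shNT, each against the same control libraries. At least 2-fold changes were fewer: 191 genes rose that far (1.5%) and 496 fell that far (3.9%). With MGT alone 19.3% of these genes were called higher and 19% lower against control, and with shNT 33% and 28%. Against shNT, shPtbp1 raised 18.2% of the genes and lowered 19%, and 85 genes changed at least 2-fold. Against MGT alone it raised 26.5% and lowered 20.8%. These shares are the background for every count below.

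**Figure D1:**
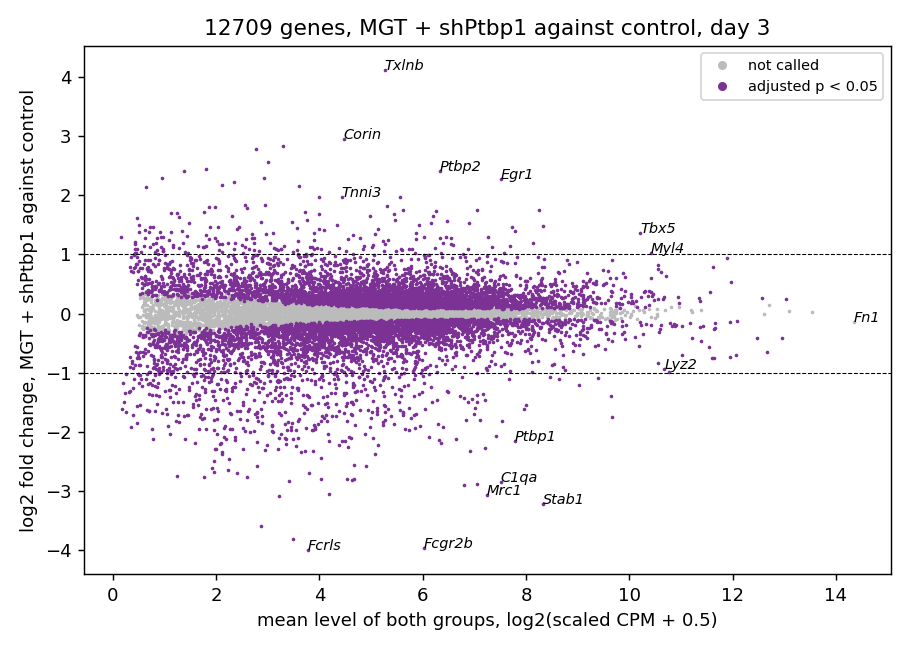
Each point is 1 of the 12709 genes, with its mean level in both groups on the horizontal axis (log2 of scaled CPM + 0.5) and its log2 fold change with shPtbp1 against control on the vertical axis; dashed lines mark 2-fold. The 496 genes at least 2-fold lower outnumber the 191 at least 2-fold higher, and Txlnb (4.12) and Fcrls (-4.01) are the named extremes.

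The 191 and 496 genes are chosen on this contrast, so their values in it are a description. The changes with MGT and with shNT use the same control libraries, so they are not independent of that choice. The genes at least 2-fold higher had a median log2 change of 1.26 with shPtbp1, 0.88 with MGT and 0.79 with shNT, each against control. The genes at least 2-fold lower had a median of -1.50 with shPtbp1, -0.088 with MGT and -1.36 with shNT. The median of the raised genes was thus well above 0 with the factors alone, whereas that of the lowered genes was near 0 there and far below 0 in both groups that had received a lentivirus. A median near 0 does not mean no change: with MGT, 132 of the 496 were called lower and 47 higher, beside 19% and 19.3% of the 12709 genes.

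The targeted gene and its paralogs come first, since they check the labels. Ptbp1 (chromosome 10, 79854427 to 79864771, plus strand, GRCm38) stood at 81.7 and 79.1 scaled CPM in the shPtbp1 libraries, 356 and 363 in control, 366 and 382 with MGT and 362 and 367 with shNT. Both shPtbp1 libraries were far below every other culture, a log2 change of -2.15 against control (SE 0.034, limma adjusted p = 1.7e-19). The source label of shPtbp1 replicate 2 names Ptbp2 in place of Ptbp1, but its title and its transduction label name Ptbp1, and its Ptbp1 and Ptbp2 levels lay next to those of replicate 1. Ptbp2 (chromosome 3, 119718742 to 119784466, minus strand), the paralog of the nervous system, went the other way, at 134 and 137 against 26.3 and 23.8 scaled CPM. MGT (27.3 and 25.5) and shNT (30.6 and 29.6) stayed near control, and the log2 change with shPtbp1 was 2.41 (SE 0.049, limma adjusted p = 7.0e-18). Ptbp3, the third paralog, fell slightly, from 155 and 153 to 134 and 130.5 scaled CPM (log2 change -0.22, SE 0.036, limma adjusted p = 4.2e-05).

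The 3 delivered factors were all above control, but not by the same amount. The reads of a virus copy and of the cell's own gene cannot be told apart in this table. Tbx5 stood at 1650.4 and 1768 scaled CPM with shPtbp1, 1569.7 and 1551 with shNT, 1779 and 1859 with MGT and 648 and 681 in control, a log2 change of 1.36 against control (SE 0.050, limma adjusted p = 3.2e-14). Gata4 stood at 662 and 651 with shPtbp1, 648 and 629.6 with shNT, 687 and 705 with MGT and 343 and 377 in control (log2 change 0.87). Mef2c was the one that differed most between the groups given MGT. It was at 724 and 766 with MGT alone, 479 and 473 with shNT, 549 and 516 with shPtbp1 and 315 and 332 in control, so its rise over control was 1.202 in log2 units with MGT, 0.56 with shNT and 0.72 with shPtbp1. Mef2c with shPtbp1 was -0.48 log2 units from MGT alone (SE 0.039, limma adjusted p = 6.0e-09) and 0.16 from shNT (SE 0.039, limma adjusted p = 0.0033). Every comparison below between shPtbp1 and MGT alone therefore sets cells with less Mef2c RNA against cells with more. Those between shPtbp1 and shNT set cells with slightly more Mef2c RNA against cells with less, and the part of that in the differences was not tested.

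**Figure D2:**
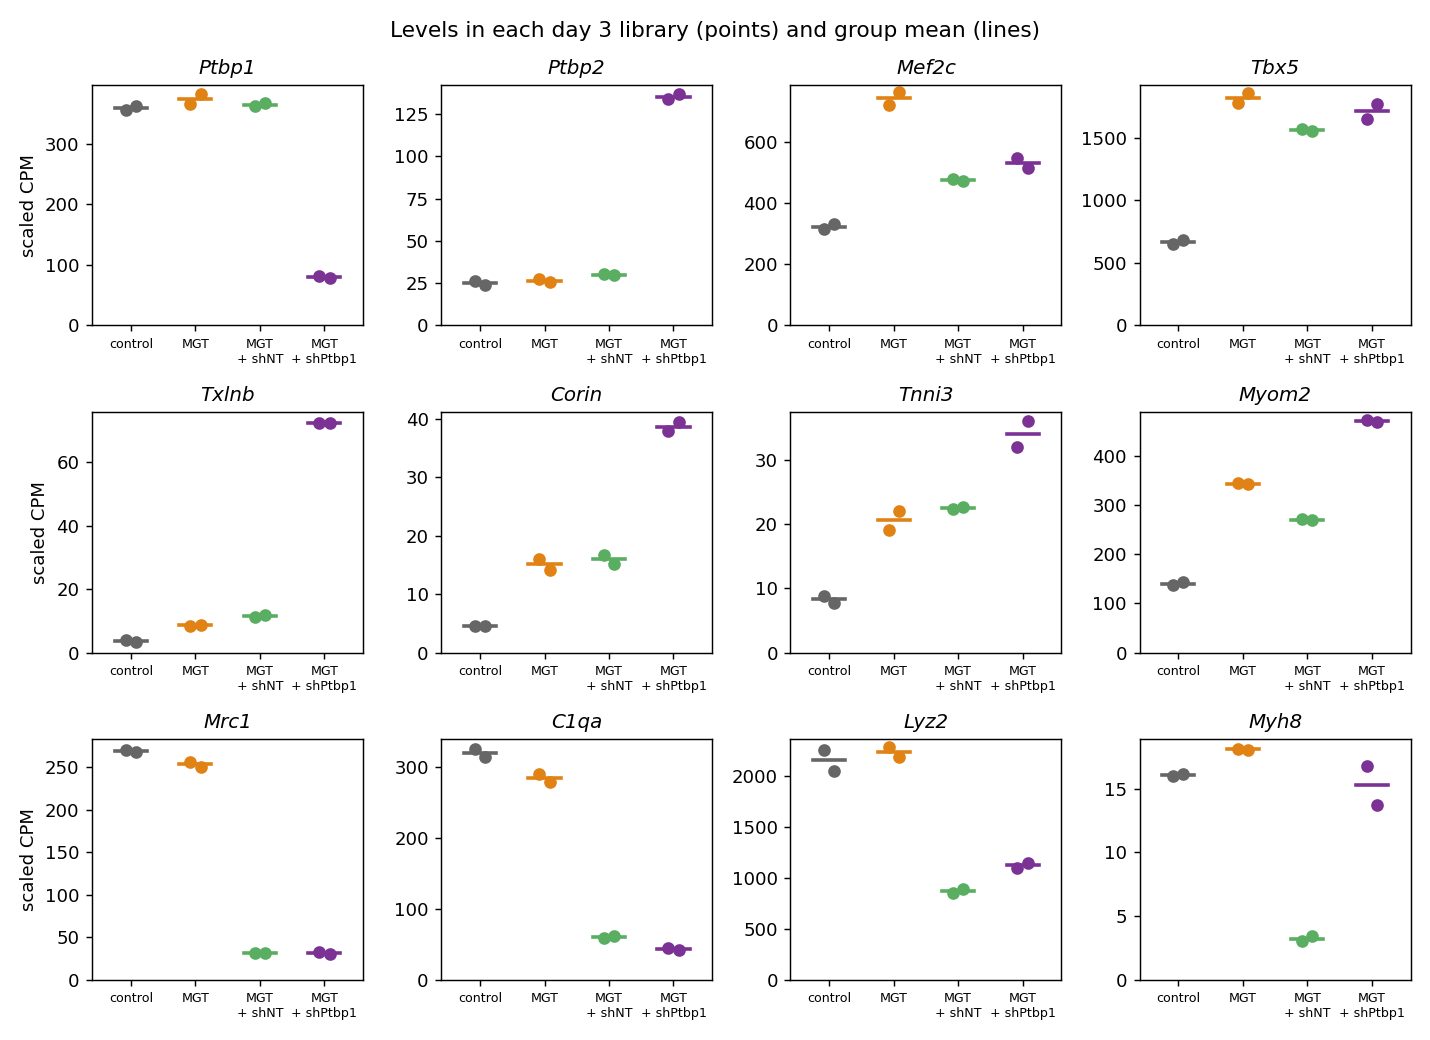
Scaled CPM (vertical axes, from 0) of 12 genes in the 8 day 3 libraries: each point is a library and each line the mean of 2. Ptbp1 is lowest and Ptbp2 highest in the shPtbp1 libraries, Txlnb, Corin, Tnni3 and Myom2 are highest there, Mrc1, C1qa and Lyz2 are low in both hairpin groups, and Myh8 is lowest with shNT.

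The 15 largest increases included the heart muscle genes Txlnb, Corin, Tnni3 and Rrad. Txlnb (chromosome 10, 17796226 to 17845665, plus strand), the taxilin of heart and skeletal muscle, rose most: 72.4 and 72.3 scaled CPM against 4.005 and 3.37 in control, a log2 change of 4.12 (SE 0.074, limma adjusted p = 1.1e-18). MGT (8.401 and 8.799) and shNT (11.3 and 11.8) lay between, and shPtbp1 exceeded shNT by 2.59 log2 units (SE 0.074, limma adjusted p = 1.0e-14). Corin (chromosome 5, 72300025 to 72504473, minus strand) encodes the cardiac protease that activates atrial natriuretic peptide. It stood at 37.9 and 39.4 scaled CPM with shPtbp1, 16.8 and 15.2 with shNT, 16.01 and 14.2 with MGT and 4.503 and 4.61 in control (log2 change 2.95 against control and 1.25 against shNT). Car14, a membrane carbonic anhydrase, rose from 1.98 and 1.82 to 15.99 and 17.3, and the vesicle GTPase Rab3b from 1.18 and 1.26 to 10.7 and 12.1. The rule that chose these genes required that the 2 groups do not overlap.

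For other large increases the MGT level lay closer to that with shPtbp1. The secreted protein gene Ccdc3 was at 2.1 and 1.52 scaled CPM in control, 11.8 and 11.7 with MGT and 12.4 and 13.9 with shPtbp1. The calcium-binding protein Necab1 was at 2.1 and 2.04, 11.3 and 11.5 and 12.6 and 11.6 in the same order. With shNT both were lower, at 5.05 and 5.83 and 5.49 and 6.04. Col10a1, the collagen of hypertrophic cartilage, had its highest level with MGT alone (36.5 and 37.5) and stood at 23.4 and 26.1 with shPtbp1 against 5.596 and 6.28 in control. Wnk4, a kinase that controls ion transport, went from 18.6 and 18.7 in control and 62.4 and 62.1 with MGT to 72.99 and 76.1. The membrane-type metalloproteinase Mmp15 went from 16.1 and 17.8 in control and 50.3 and 51.99 with MGT to 58.7 and 63.1.

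Egr1, an immediate-early transcription factor, was high in both hairpin groups. It stood at 296 and 308 scaled CPM with shPtbp1 and 257 and 233 with shNT, against 90.2 and 96.3 with MGT and 61.4 and 62.6 in control (log2 change against control 2.28, SE 0.044, limma adjusted p = 3.5e-18). The difference of shPtbp1 from shNT was smaller, 0.31 log2 units (SE 0.044, limma adjusted p = 2.3e-05). The rest of the 15 largest increases were the Wnt signalling protein Ccdc88c (2.16), cardiac troponin I Tnni3 (1.97), the synapse protein Syndig1 (1.83) and Rrad (1.76), a GTPase that restrains L-type calcium channels, all as log2 changes against control. Leaving out either library of either group kept each of these calls.

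**Figure D3:**
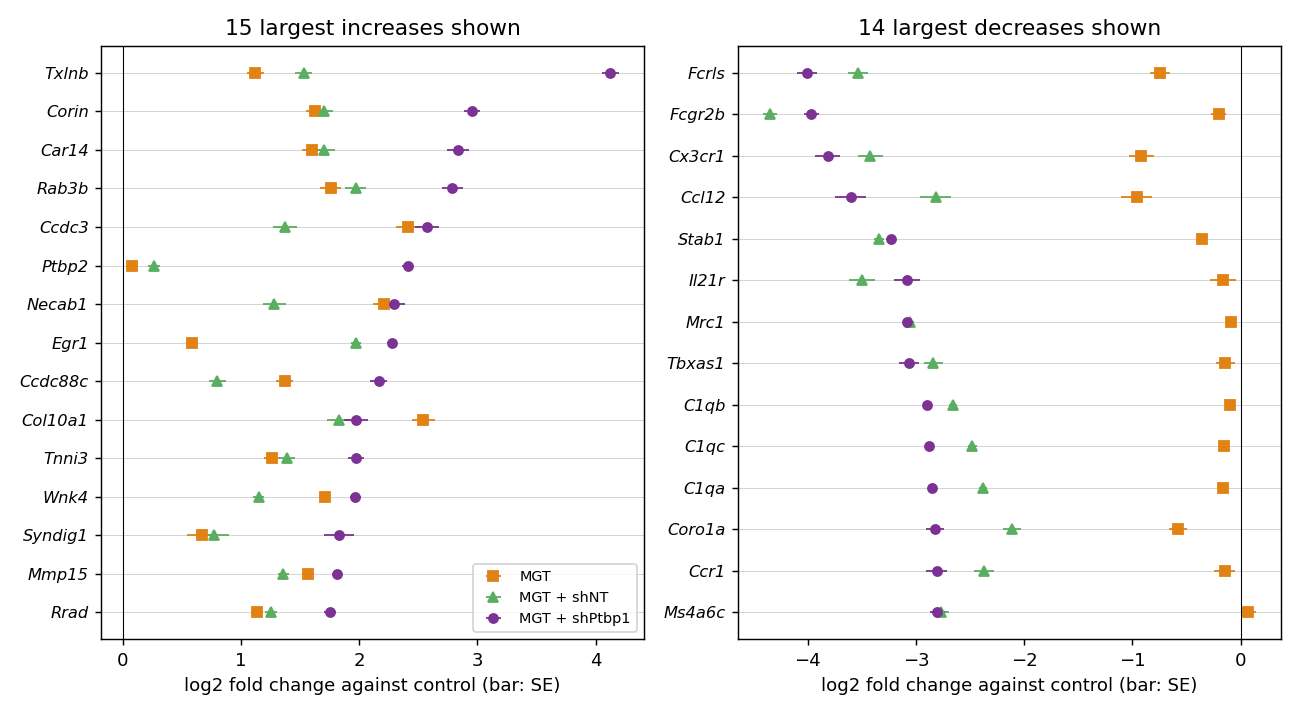
Log2 fold change against control (horizontal axes, bars are SE) of the 15 largest increases and 14 of the largest decreases with MGT alone, MGT with shNT and MGT with shPtbp1; all 3 changes use the same 2 control libraries. Txlnb reaches 4.12 with shPtbp1 and 1.53 with shNT, while the 14 decreases lie between -0.96 and 0.07 with MGT and between -4.35 and -2.11 with shNT.

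The promoter of Tnni3 is shown because its gene was the most increased sarcomere gene and because Tbx5 was among the delivered factors. RefSeq promoter windows (250 bases before to 50 after a start, GRCm38.p6) were matched by symbol for 10 of the 15 largest increases, 13 of the 14 largest decreases shown and 9473 of the genes. They were searched on both strands for AGGTGTGA (T-box), AGATAA (for zinc finger factors of the Gata4 kind, called the GATA motif), GAGGAAGT (ETS) and the MEF2 consensus, none of which contains another. The T-box motif was in 0.707% of the 9473 windows and in 1 of the 10 windows of large increases, that of Tnni3. The window is chr7:4522479-4522778 on the minus strand, and the capitals mark the match, 201 to 194 bases before the start.
Tnni3: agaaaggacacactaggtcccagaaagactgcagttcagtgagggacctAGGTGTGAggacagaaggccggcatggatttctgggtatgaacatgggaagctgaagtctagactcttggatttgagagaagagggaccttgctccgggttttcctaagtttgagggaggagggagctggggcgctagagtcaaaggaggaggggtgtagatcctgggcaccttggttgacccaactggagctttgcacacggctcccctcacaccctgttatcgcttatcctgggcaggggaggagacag
The GATA motif was in 6.06% of the 9473 windows, the MEF2 consensus in 1.73% and the ETS motif in 3.14%, and none of these 3 was in the 10 windows of large increases. A match is a run of letters, and binding was not measured.

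Most genes of the contractile apparatus rose. Of 26 sarcomere genes among those expressed, 20 were called higher with shPtbp1 and 3 lower against control, with a median log2 change of 0.76, beside 0.017 over all 12709 genes. The medians with MGT and with shNT were 0.52 and 0.47. Myom2, the M-band protein myomesin 2, stood at 471 and 468 scaled CPM with shPtbp1, 272 and 268 with shNT, 343 and 343 with MGT and 137 and 142 in control. The 4 groups did not overlap, and the change against control was 1.75 (SE 0.043, limma adjusted p = 1.0e-16). Ldb3, a Z-disc protein, rose from 116 and 128 to 321 and 322 scaled CPM (log2 change 1.399). Tnni3 rose from 8.83 and 7.72 to 31.9 and 35.96, and the Z-disc actinin Actn2 from 5.596 and 5.74 to 13.2 and 13.2.

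The 3 that fell were all low: the myosin light chain Myl3 (-0.28), the skeletal myosin-binding protein Mybpc2 (-0.45) and Xirp1 (-0.24), with levels of 0.947 to 6.17 scaled CPM in the 4 libraries. The call of Xirp1 was lost without shPtbp1 replicate 2 and with quantile normalization, and that of Myl3 with quantile normalization and in the fits of 4 and of 8 libraries. With quantile normalization 1 sarcomere gene was lower.

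Titin, the giant spring protein, did not follow that order. Ttn was at 234 and 199.6 scaled CPM with shPtbp1, 203 and 179 with shNT, 251 and 269.8 with MGT and 74.8 and 104 in control, so it was called against control (log2 change 1.29, SE 0.099, limma adjusted p = 1.7e-09) but its highest libraries were those with MGT alone. The alpha tropomyosin Tpm1 stood at 3370.4 and 3408 with shPtbp1, 2374 and 2444 with shNT, 3078 and 3238 with MGT and 2742 and 2551 in control. The excess was 0.36 log2 units over control and 0.49 over shNT (SE 0.048, limma adjusted p = 2.3e-07). The thick filament protein Mybpc3 stood at 48.2 and 47.9 with shPtbp1 against 35.2 and 41.5 in control, but at 62.3 and 58.95 with shNT, -0.33 log2 units from shNT (limma adjusted p = 1.4e-04). Against shNT, 16 of the 26 sarcomere genes were higher and 4 lower.

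Calcium handling and ion channel genes rose more often than they fell against control. Of 26, 17 were higher and 3 lower against control, with a median of 0.35, and 9 were higher and 5 lower against shNT, with a median of -0.011. Calsequestrin Casq2, the calcium store of the sarcoplasmic reticulum, was at 251 and 259 scaled CPM with shPtbp1, 280.4 and 302 with shNT, 231 and 239.8 with MGT and 123 and 127 in control (log2 change against control 1.03, SE 0.046, limma adjusted p = 7.1e-13). The ryanodine receptor Ryr2, the release channel, rose from 109 and 122 to 229.5 and 209.9, and triadin Trdn, which links calsequestrin to that channel, from 9.23 and 7.88 to 18.7 and 19.7. The calcium pump Atp2a2 was 0.69 log2 units above control and 0.43 above shNT (SE 0.040, limma adjusted p = 1.3e-07).
The acetylcholine-gated potassium channel subunit Kcnj5 rose in both hairpin groups, to 122 and 126 with shPtbp1 and 137 and 130.2 with shNT, from 61.8 and 66.9 in control and 69.3 and 67.7 with MGT. The sodium-calcium exchanger Slc8a1 had 161 and 155 scaled CPM with shPtbp1 and 149 and 159 in control, a difference of 0.041 (SE 0.040, limma adjusted p = 0.4), yet it stood at 219.5 and 212 with shNT and 196 and 206 with MGT. It was -0.45 log2 units from shNT (limma adjusted p = 8.0e-08), so it was low among the cultures given MGT. The 3 that fell were the pacemaker calcium channel Cacna1d, from 7.101 and 7.103 to 3.01 and 2.88, the skeletal calsequestrin Casq1 (-0.42) and the pacemaker channel Hcn4 (-0.34), whose call was lost in 11 of the 17 settings that tested it. These were quantile normalization, a pseudocount of 0.1, no filter on low values, the filter over the 4 libraries, the fits of 4 and of 8 libraries, the replicate block (limma adjusted p = 0.053), edgeR, and the leaving out of shPtbp1 replicate 1 or of either control library.

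Cardiac transcription factors other than the delivered 3 rose in 15 of 18 expressed members and fell in 1, with a median of 0.27. With shNT 15 were also higher and 1 lower than control (median 0.31), and with MGT 8 and 1 (median 0.12). Ankrd1, a stress-responsive cofactor of the heart, stood at 2024 and 2079.6 scaled CPM against 1319.8 and 1308, and Hand2, a factor of the right ventricle, at 41.1 and 43.4 against 28.7 and 27.1. Tbx20 and Mef2d rose by 0.41 and 0.46 log2 units. The forkhead factor Foxp1 was the member that fell, from 66.9 and 71.03 to 49.1 and 50.9, and it was also lower than with shNT (-0.36, SE 0.041, limma adjusted p = 2.0e-06). Gata6 was called at 0.13 log2 units, a call lost without shPtbp1 replicate 2 or without control replicate 1 (0.082 and 0.096), with quantile normalization and in the fit of 4 libraries. Nkx2-5, Hand1, Gata5, Isl1, Irx3, Irx4 and Irx5 were below the level rule. Against shNT, 3 were higher and 4 lower.

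The list of other cardiomyocyte markers had 24 expressed members, 17 of them higher and 2 lower (median 0.69). The lower ones were plakophilin Pkp2, a junction protein, from 18.8 and 18.5 to 14.2 and 12.9, and the natriuretic peptide gene Nppb (-0.27). The Nppb call was lost in 9 of 18 settings: quantile normalization, a pseudocount of 2, no filter on low values, the filter over the 4 libraries, the fits of 4 and of 8 libraries, and the leaving out of either shPtbp1 library or of control replicate 1. In 8 of the settings the lower count was 1. Trim72, the membrane repair protein of striated muscle, stood at 46.2 and 48.5 scaled CPM with shPtbp1, against 18.7 and 17.6 with shNT, 21.03 and 18.8 with MGT and 13.9 and 15.6 in control. Its change was 1.65 log2 units against control and 1.36 against shNT (SE 0.086, limma adjusted p = 8.9e-10). Myoglobin Mb, the oxygen store of muscle, stood at 19.9 and 20.1 with MGT alone and 19.4 and 20.1 with shPtbp1, against 7.499 and 6.67 with shNT and 6.65 and 5.89 in control. Its level with shPtbp1 exceeded that with shNT by 1.42 log2 units (SE 0.062, limma adjusted p = 5.9e-12). The muscle ubiquitin ligase Trim63 rose from 13.1 and 13.6 to 33.1 and 32.4 and was at 26.6 and 26.8 with shNT. The atrial natriuretic peptide gene Nppa was not called, with 14.2 and 14.7 against 14.6 and 15.6 scaled CPM (log2 change -0.059, SE 0.065, limma adjusted p = 0.46). Against shNT, 15 of the 24 were higher and 3 lower.

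Skeletal muscle genes did not rise on balance against control. Of 10 expressed, the calcium channel Cacna1s was called higher (0.41), a call lost without shPtbp1 replicate 1 or control replicate 1 and with a pseudocount of 0.1. Fast troponin I Tnni2 (-1.18), Casq1 (-0.42) and the actinin Actn3 (-0.55) were called lower, the last not without shPtbp1 replicate 2. The counts were thus 1 higher and 3 lower, and the regulators Myod1, Myf5, Myf6, Myog and Pax7 were below the level rule. Against shNT, 6 of the 10 were higher and 1 lower, with a median of 0.42. With shNT, 1 was higher and 6 were lower than control, with a median of -0.51. The perinatal myosin heavy chain Myh8 stood at 16.8 and 13.8 scaled CPM with shPtbp1, 16.01 and 16.1 in control, 18.1 and 18.1 with MGT and 3.03 and 3.43 with shNT. It was not called against control (-0.079, SE 0.10, limma adjusted p = 0.52) but was 2.08 log2 units above shNT (SE 0.10, limma adjusted p = 2.1e-11). Myh1 was also lowest with shNT (37.4 and 36.99), with 62.5 and 60.9 with shPtbp1, 63.8 and 63.8 in control and 85.4 and 99.5 with MGT. The myosin heavy chains are near-identical paralogs, and their reads may be split or lost among them.

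**Figure D4:**
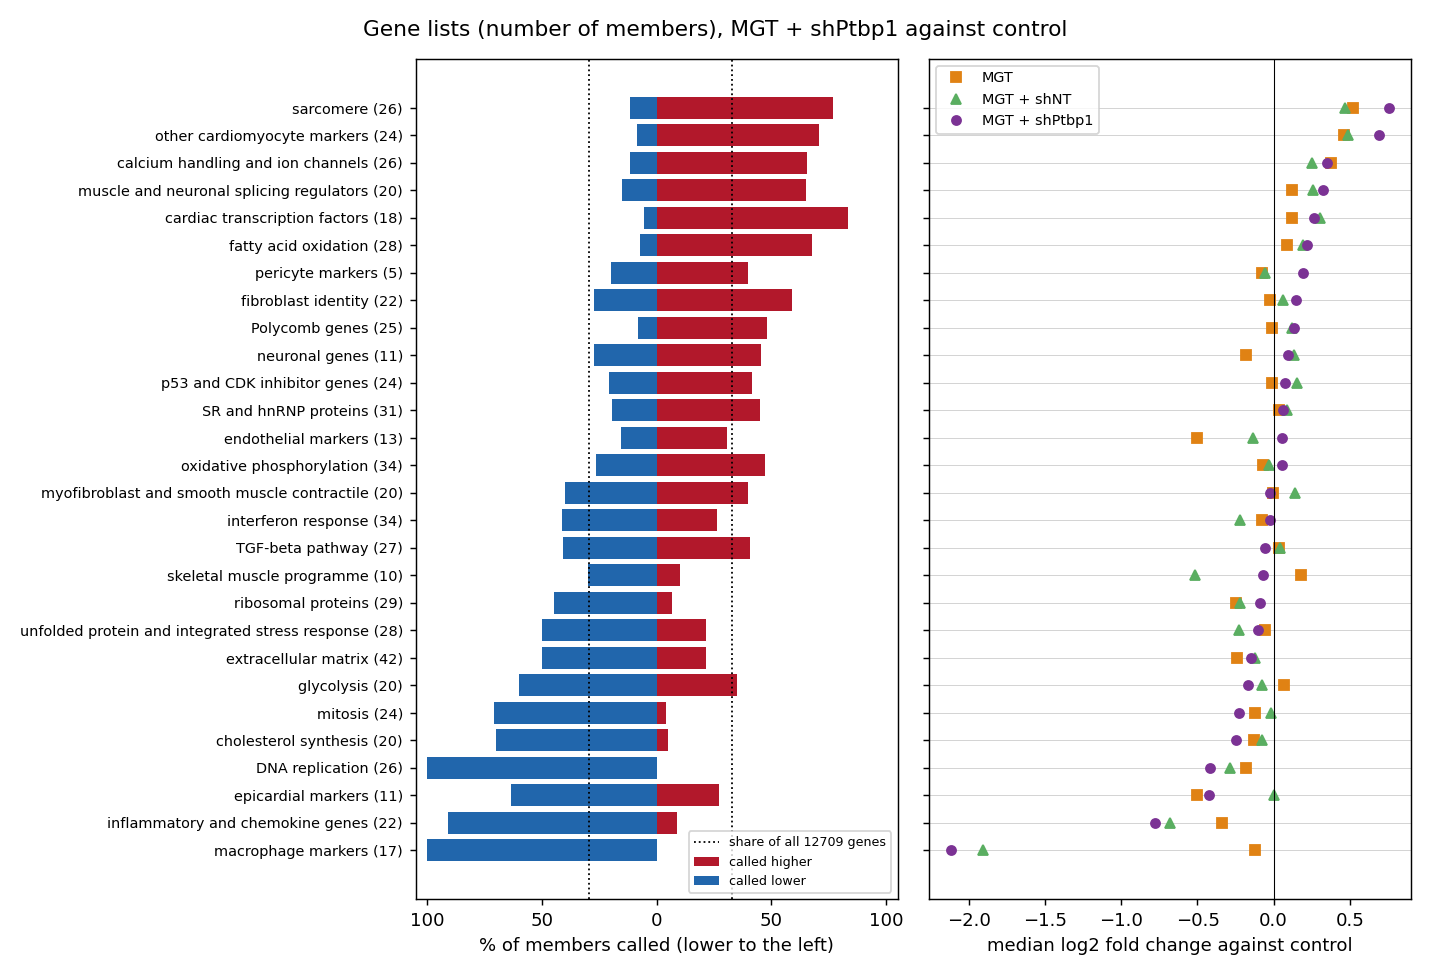
Left, the share of each gene list's expressed members called higher (red, right) or lower (blue, left) with shPtbp1 against control, with dotted lines at the shares of all 12709 genes; right, the list's median log2 fold change against control with MGT, shNT and shPtbp1, which share the control libraries. Macrophage markers (17 of 17 lower) and DNA replication genes (26 of 26 lower) lie at one end and sarcomere genes (20 of 26 higher) at the other; lists with fewer than 5 members are left out.

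The largest decreases were genes of macrophages, the phagocytes that reside in heart tissue and carry Fc receptors, complement C1q and scavenger receptors. All 17 expressed members of the macrophage marker list were lower with shPtbp1 than in control, 15 of them at least 2-fold, with a median log2 change of -2.12. The medians were -0.13 with MGT and -1.91 with shNT against control. The summed level of all 18 listed markers, Cd163 included, was 1785 and 1834 scaled CPM with shPtbp1, 1611 and 1663 with shNT, 4779.9 and 4612 with MGT and 4825 and 4565 in control. Both lentivirus groups thus lay below both groups without one. In fresh Thy1-sorted fibroblasts the sum was 1439 and 1427. Cd163 was the member below the level rule. In bulk RNA, fewer cells of a type and less RNA per cell cannot be told apart.

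Mrc1 (chromosome 2, 14229392 to 14332057, plus strand), the mannose receptor, stood at 32.9 and 30.01 scaled CPM with shPtbp1 and 32.03 and 32.03 with shNT, against 257 and 251 with MGT and 271 and 268 in control. Its change was -3.08 log2 units (SE 0.040, limma adjusted p = 2.2e-20), and shPtbp1 and shNT differed by -0.026 (SE 0.040, limma adjusted p = 0.66). C1qa, a chain of complement C1q, was at 45.1 and 42.6 with shPtbp1, 59.6 and 62.2 with shNT, 291 and 279 with MGT and 325 and 314 in control. Its sister chains C1qb and C1qc fell by 2.90 and 2.88 log2 units, and all 3 chains were also called lower with shPtbp1 than with shNT (-0.47, -0.24 and -0.40). Stab1, a scavenger receptor, went from 558 and 607 to 63.6 and 59.5, and the inhibitory Fc receptor Fcgr2b from 131 and 113 to 7.34 and 7.31.

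The other large decreases were Fcrls (-4.01), the fractalkine receptor Cx3cr1 (-3.81), the monocyte chemokine Ccl12 (-3.604), the interleukin 21 receptor Il21r (-3.09), thromboxane synthase Tbxas1 (-3.06), the chemokine receptor Ccr1 (-2.81), the leukocyte actin regulator Coro1a (-2.83) and Ms4a6c (-2.802), in log2 units against control. Lyz2 and Cd68, classic markers of the lineage, fell less. Lysozyme Lyz2 went from 2255 and 2053 to 1099 and 1149 scaled CPM (-0.94) and was higher than with shNT (850.1 and 894; difference 0.37, SE 0.047, limma adjusted p = 6.1e-06). Cd68, a lysosomal protein, was highest with MGT (511 and 539) and fell from 395 and 367 in control to 215 and 221 with shPtbp1. Against shNT, 9 of the 17 markers were lower and 2 higher, with a median of -0.21.

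**Figure D5:**
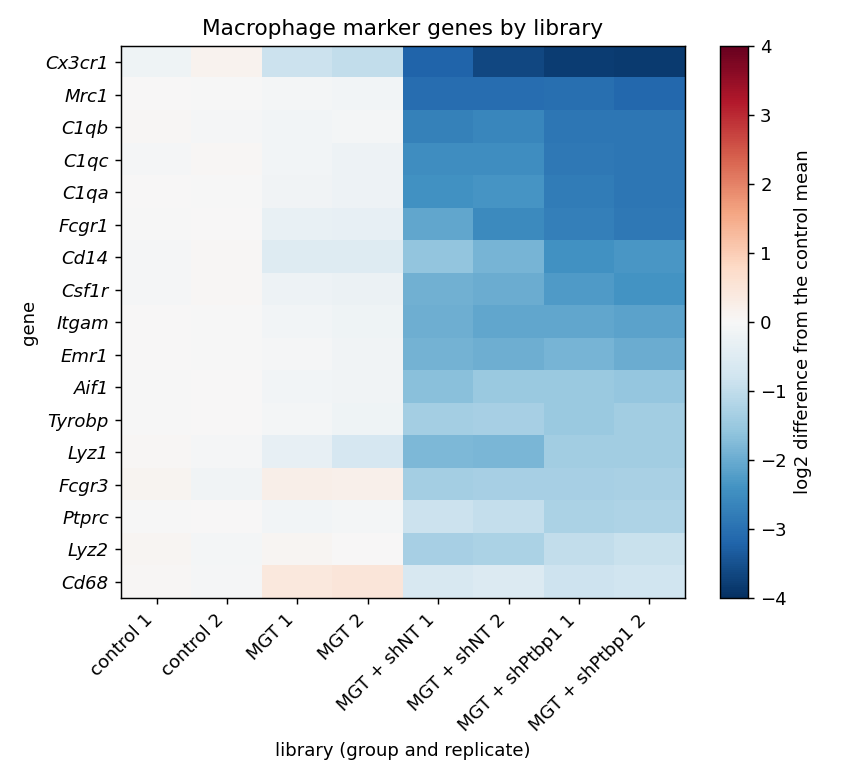
Log2 difference of each day 3 library (columns, group and replicate) from the control mean for the 17 expressed macrophage markers (rows); the colour scale runs from -4 (blue) to 4 (red). All 17 rows are blue in the 2 shPtbp1 columns and the 2 shNT columns, and most are pale with MGT alone, where the median of the 17 was -0.13.

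The promoter of C1qc is shown as the only window of the large decreases that held the ETS motif. C1q genes were among the strongest decreases at a high level, and ETS factors such as PU.1 are known regulators of macrophage genes. The ETS motif, on either strand, was in 1 of the 13 windows of large decreases, that of C1qc, beside 3.14% of the 9473 windows. The window is chr4:136892865-136893164 on the minus strand, and the capitals mark the match, which is on the reverse strand and lies 195 to 188 bases before the start.
C1qc: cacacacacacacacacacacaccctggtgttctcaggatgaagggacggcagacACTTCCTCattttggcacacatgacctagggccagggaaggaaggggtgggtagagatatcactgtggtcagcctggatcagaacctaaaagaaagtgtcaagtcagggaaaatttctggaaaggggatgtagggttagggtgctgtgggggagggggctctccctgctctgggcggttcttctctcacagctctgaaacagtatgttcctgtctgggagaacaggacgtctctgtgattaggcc
The GATA motif was in 1 of the 13 windows, that of Fcrls, and the T-box motif and the MEF2 consensus were in none.

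Inflammatory genes fell nearly throughout. Of 22 inflammatory and chemokine genes, 20 were lower and 2 higher than in control, with a median of -0.78, beside -0.34 with MGT and -0.68 with shNT. The macrophage markers moved in the same libraries, and their part in this result was not tested. The chemokine Ccl2, a monocyte attractant, was at 58.3 and 64.02 scaled CPM with shPtbp1, 63.04 and 57.2 with shNT, 131 and 124 with MGT and 168 and 178 in control (log2 change -1.49, SE 0.055, limma adjusted p = 3.3e-14). Ccl9 fell from 77.9 and 72.2 to 22.2 and 22.8 with a like level in shNT (24.98 and 23.6).
Il1rn and Cxcl16 fell beyond the shNT level. The interleukin 1 receptor antagonist Il1rn stood at 5.47 and 5.99 scaled CPM with shPtbp1, against 16.2 and 14.7 with shNT, 20.5 and 18.3 with MGT and 19.5 and 19.3 in control, and shPtbp1 was -1.36 log2 units from shNT (SE 0.078, limma adjusted p = 2.3e-10). Cxcl16, a membrane-bound chemokine, was at 18.9 and 19.3 with shPtbp1, 40.3 and 41.03 with shNT and 56.9 and 57.6 in control (-1.07 against shNT, SE 0.046, limma adjusted p = 4.7e-12). Of the 17 macrophage markers 9 were lower and 2 higher than with shNT, with a median of -0.21, and their part in these 2 changes was not tested. The 2 that rose against control were the neutrophil chemokine Cxcl1 (0.43) and Lif (0.32), a cytokine of the interleukin 6 family. Against shNT, 6 of the list were lower and 7 higher. The calls of Nfkb1 (-0.098) and Csf1 (-0.12) against control were lost without shPtbp1 replicate 1 or control replicate 2, with no filter on low values and in the fit of 4 libraries, and that of Nfkb1 also without shPtbp1 replicate 2.

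Interferon response genes were mixed. Of 34, 9 were higher and 14 lower than in control, with a median of -0.024; the higher count was 4 without shPtbp1 replicate 1 and 5 without control replicate 2 or with no filter on low values. Genes of antigen processing and class I presentation went both ways. The immunoproteasome subunit Psmb8 went from 23.7 and 23.6 to 12.4 and 11.98 scaled CPM and the class I heavy chain H2-D1 from 74.8 and 77.7 to 42.99 and 46.2, whereas the light chain B2m rose from 1277 and 1123 to 1859 and 2045. Isg15 and Irf7 were not called against control (-0.0011 and 0.0056, SE 0.080 and 0.074). Against shNT, 12 of the 34 were higher and 1 lower, with a median of 0.13. The lower one was the antiviral gene Rsad2, at 12.4 and 7.58 with shPtbp1, 23.4 and 17.8 with shNT and 14.3 and 16.9 in control, whose call against control (-0.65, SE 0.18, limma adjusted p = 0.0039) was lost without shPtbp1 replicate 2 (-0.31, limma adjusted p = 0.13), with no filter on low values and with a robust variance prior.

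Genes of DNA replication and mitosis fell. All 26 replication genes were lower than in control, with a median of -0.42 (-0.18 with MGT and -0.29 with shNT). The licensing factor Cdt1 was at 10.4 and 9.63 scaled CPM with shPtbp1, 10.3 and 11.2 with shNT, 19.6 and 17.7 with MGT and 21.2 and 24.03 in control (log2 change -1.13, SE 0.078, limma adjusted p = 3.5e-10). Thymidine kinase Tk1 fell from 24.9 and 26.7 in control to 11.9 and 13.7 with shPtbp1, with 20.7 and 20.2 with MGT and 17.4 and 18.3 with shNT between. The helicase subunit Mcm5 went from 59.3 and 56.8 to 33.4 and 36.6, and Uhrf1, which guides maintenance of DNA methylation, from 62.3 and 62.8 to 35.2 and 35.2. The call of E2f1 (-0.19), a transcription factor of S phase, was lost without either shPtbp1 library or without control replicate 2 (-0.18, -0.20 and -0.10 log2 units), and with quantile normalization or no filter on low values.

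Of 24 mitosis genes, 17 fell and 1 rose against control, with a median of -0.23, beside -0.12 with MGT and -0.014 with shNT. Mki67, a marker of cycling cells, stood at 172 and 165 scaled CPM with shPtbp1, 208 and 203 with shNT, 236 and 248 with MGT and 243 and 247 in control (log2 change -0.54, SE 0.038, limma adjusted p = 4.9e-10). The checkpoint kinase Bub1 went from 24.7 and 22.8 to 15.8 and 14.7 and topoisomerase Top2a from 134 and 138 to 102 and 98.2. Against shNT, 18 of the 24 were lower and 0 higher, and 14 of the 26 replication genes were lower and 1 higher. The one that rose was Kif23 (0.199), a kinesin of cell division. Nusap1 and Ube2c were not called against control (0.0012 and -0.0070 log2 units, SE 0.053 and 0.056) but lower than with shNT (-0.25 and -0.22).

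Extracellular matrix genes fell more often than they rose, while fibroblast identity genes rose more often than they fell. Of 42 matrix genes, 9 were higher and 21 lower than in control, with a median of -0.15. The medians were -0.24 with MGT and -0.12 with shNT. Fibulin 2, an elastic fibre protein, went from 2265 and 2351 scaled CPM in control through 1556 and 1602 with MGT and 1710.4 and 1697 with shNT to 1221 and 1113 with shPtbp1 (log2 change -0.98, SE 0.045, limma adjusted p = 9.1e-13). The proteoglycan Vcan fell from 191 and 202 to 110.3 and 97.3 and the microfibril protein Mfap4 from 216 and 181 to 103 and 101. Going the other way, collagen XV (Col15a1) rose from 42.5 and 48.5 to 89.4 and 91.9 and Mfap5 from 14.6 and 15.3 to 27.4 and 30.5. Against shNT, 10 were higher and 14 lower.

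Of 22 fibroblast identity genes, 13 rose and 6 fell, with a median of 0.15. Thy1, the protein used for the sort, stood at 533 and 625 scaled CPM with shPtbp1, 569.7 and 598 with shNT, 453 and 510.3 with MGT and 301 and 314 in control (log2 change 0.905, SE 0.059, limma adjusted p = 1.7e-10). Cd34, a marker of stromal progenitors, rose from 31.2 and 34.3 to 59.6 and 63.7, and dermatopontin Dpt from 44.9 and 43.1 to 70.4 and 73.3. Dpep1 fell, from 73.4 and 70.97 to 45.7 and 43.5, and was lowest with MGT alone (35.6 and 35.3). The collagen receptor Ddr2 was not called (-0.066, SE 0.041) but was called without shPtbp1 replicate 1 (-0.13) and with quantile normalization (-0.12). Pdgfra, the receptor that marks fibroblasts, was called at 0.092 log2 units. That call was lost in 11 of 18 alternative settings: no scaling factor, upper-quartile, quantile or TMM scaling, no filter on low values, the fits of 4 and of 8 libraries, edgeR, and the leaving out of shPtbp1 replicate 1 or of either control library. Against shNT, 9 were higher and 1 lower.

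Contractile genes of myofibroblasts and smooth muscle split evenly against control, with 8 of 20 higher and 8 lower, but against shNT 2 were higher and 11 lower. Calponin Cnn1 stood at 20.3 and 20.9 scaled CPM with shPtbp1, 35 and 37.9 with shNT, 37.97 and 38.6 with MGT and 56.3 and 53.4 in control, -1.39 log2 units from control and -0.81 from shNT (SE 0.072, limma adjusted p = 7.0e-08). The beta tropomyosin Tpm2 was near 646 and 595 in control and 656 and 688 with shNT, and at 424 and 428 with shPtbp1 (-0.66 against shNT, limma adjusted p = 1.6e-09). Filamin A, an actin crosslinker, went from 3628 and 4164 to 2427 and 2180.2, with 3531 and 3410.5 with shNT. Tpm1, the alpha tropomyosin described with the sarcomere, rose in the libraries in which Tpm2 fell. Synpo2, a Z-disc and stress fibre protein, rose from 39.3 and 40 to 65.3 and 62.99, and the smooth muscle myosin Myh11 was not called (32.97 and 31.2 against 32.7 and 31.5).

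The TGF-beta pathway, which drives matrix production, had 11 of 27 members higher and 11 lower. The ligand Tgfb2 rose from 170.2 and 181 to 272 and 276 scaled CPM and Bmp6 from 13.4 and 14.2 to 23.7 and 25.6. The induced matrix protein Tgfbi fell from 37.4 and 36.7 to 12.8 and 12.1, with 13.5 and 12.6 with shNT and 21.2 and 20.4 with MGT, and the latent ligand binder Ltbp2 from 190.1 and 214 to 112 and 104. Among the inhibitors of DNA binding, Id2 fell in both hairpin groups (41.4 and 43.5 and 44.4 and 43.9 against 83.9 and 81.96), while Id3 and Id1 were not called against control (-0.060 and 0.074); Id1 was called without control replicate 2 (0.23). Tgfbi is also made by macrophages, whose markers fell in the same libraries, and the part of that in its change was not tested.

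Energy metabolism genes shifted in parts. Of 28 fatty acid oxidation genes, 19 rose and 2 fell (4 without shPtbp1 replicate 2, and 4 by edgeR), with a median of 0.22. The thiolase Acaa2, the last step of the cycle, stood at 125 and 138 scaled CPM with shPtbp1, 89.4 and 94.3 with shNT, 101 and 98.7 with MGT and 55.03 and 53.1 in control (log2 change 1.27, SE 0.045, limma adjusted p = 1.8e-14). Pdk4, which diverts pyruvate from oxidation, rose from 6.83 and 6.46 to 15.5 and 17, and the heart fatty acid binding protein Fabp3 from 32.1 and 27.97 to 48.2 and 52.5. The 2 that fell were the fatty acid binding protein Fabp4 (-0.43) and the transporter Cd36. Cd36 went from 249 and 238 in control, 301 and 311 with MGT and 221 and 223 with shNT to 154 and 152 with shPtbp1. Its difference from shNT was -0.54 log2 units (SE 0.034, limma adjusted p = 8.9e-10). Macrophages carry Cd36 too. Their markers had a median of -0.21 against shNT, and their part in this result was not tested.

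Glycolysis genes fell in 12 of 20 and rose in 7. The lactate exporter Slc16a3 stood at 12.4 and 12.5 scaled CPM with shPtbp1, 27.3 and 27.05 with shNT, 24.7 and 23.98 with MGT and 34.2 and 38.4 in control, -1.09 log2 units from shNT (SE 0.060, limma adjusted p = 1.2e-10). Hexokinase 2 fell from 119.8 and 124 to 79.9 and 75.5 and Pgk1 from 322 and 332 to 219 and 225. The heart-type lactate dehydrogenase subunit Ldhb rose from 25.4 and 20.9 to 48.8 and 56.5, and the other lactate carrier, Slc16a1, from 36.97 and 38.9 to 63.8 and 65.3. Gapdh was not called (0.084, SE 0.044, limma adjusted p = 0.11), a result that became a call without shPtbp1 replicate 1 (0.15).

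Of 34 oxidative phosphorylation genes, 16 rose and 9 fell against control with a median of 0.054, and 14 rose and 0 fell against shNT. The complex I subunits went both ways: Ndufa1 rose from 39.6 and 38.6 to 63.8 and 73.9 scaled CPM and Ndufa2 fell from 42.2 and 42.9 to 27.9 and 27.2. Of 20 cholesterol synthesis genes 14 fell and 1, the desaturase Sc5d (0.36), rose (median -0.25). Lss, which closes the sterol ring, went from 29.2 and 32.1 to 20.05 and 19.5, Hsd17b7 from 16.1 and 15.8 to 10.4 and 9.698 and the sterol sensor Insig1 from 60.6 and 57.6 to 41.6 and 39.02. Hsd17b7 was at 16.3 and 16.03 with MGT and 15.98 and 14.9 with shNT, and shPtbp1 was lower than shNT (-0.595, SE 0.082, limma adjusted p = 1.5e-05).

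Ribosomal protein genes stood between control and shNT. Of 29, 13 were lower and 2 higher than control (5 higher without shPtbp1 replicate 1, and 4 without control replicate 1 or with the filter over the 4 libraries), with a median of -0.091, while 22 were higher and 0 lower than with shNT. Rps14 was at 294 and 311 scaled CPM with shPtbp1, 276 and 277 with shNT, 325 and 282 with MGT and 432 and 482 in control. The 2 higher than control were Rps24, at 1325 and 1469.5 against 1169 and 999, and Rpl11 (0.24). Ribosomal protein genes have many processed copies, so their reads may be split or lost.

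Stress response genes were lower in part. Of 28 genes of the unfolded protein and integrated stress responses, 14 were lower and 6 higher than control. Trib3, a pseudokinase induced by amino acid and endoplasmic reticulum stress, went from 81.2 and 82.7 in control and 46.1 and 41.4 with MGT to 26.1 and 24.03 with shNT and 31.5 and 30.03 with shPtbp1 (log2 change -1.40, SE 0.076, limma adjusted p = 1.1e-11). Ddit4, an inhibitor of mTOR, had the same order of groups, with 28.9 and 30.1 in control, 16.99 and 16 with MGT, 12.1 and 13.2 with shNT and 15.7 and 15.1 with shPtbp1. Atf3, a stress transcription factor, was lowest with shPtbp1: 14.7 and 14.8 against 26.8 and 27.5 with shNT, 27.8 and 28.3 with MGT and 25.7 and 28.97 in control, -0.86 log2 units from shNT (SE 0.047, limma adjusted p = 1.2e-10). Against shNT, 15 of the list were higher and 3 lower.

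Splicing regulators of muscle and nerve, the field in which Ptbp1 acts, rose more often than they fell in both hairpin groups. Of 20, 13 were higher and 3 lower than control with shPtbp1, with a median of 0.33. With shNT 13 were higher and 0 lower than control (median 0.26), and the median with MGT was 0.12. Against shNT, 6 were higher and 4 lower with shPtbp1, with a median of -0.075. Rbm20, the regulator of titin splicing, stood at 21.8 and 20.7 scaled CPM with shPtbp1, 22.97 and 23.7 with shNT, 22.7 and 23.3 with MGT and 12.2 and 14.6 in control (log2 change 0.65, SE 0.075, limma adjusted p = 4.3e-07). Matr3, a nuclear matrix protein known to bind Ptbp1, rose from 169 and 154 to 216 and 213 and was above shNT (0.28, SE 0.038, limma adjusted p = 1.4e-05). Mbnl3, a muscleblind protein, was highest with shNT (20.1 and 19.5) and stood at 12.9 and 11.3 with shPtbp1 and 7.65 and 8.26 in control. The 3 that fell were Mbnl1, the main muscleblind protein of most tissues, from 179 and 192 to 140.5 and 139, and at low levels Rbfox1 (-0.92) and the epithelial regulator Esrp2 (-0.83). Rbfox2 was not called (218 and 212 against 207 and 219).
Of 31 SR and hnRNP proteins, the general splicing factors, 14 were higher and 6 lower than control, with a median of 0.064; the higher count was 9 when the 4 libraries were fitted alone. Hnrnph3 rose most, from 17.9 and 16.1 to 25.6 and 26.1, and Srsf2 fell from 129.7 and 132 to 101 and 106. Hnrnpk and Hnrnpa3 were not called (0.0089 and 0.018). Against shNT, 2 were higher and 5 lower.

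Among markers of other heart cell types, those of endothelium and pericytes moved both ways, and more epicardial markers fell than rose. The endothelial markers summed to 638 and 642 scaled CPM with shPtbp1, 672 and 662 with shNT, 544 and 580.4 with MGT and 607 and 635 in control. Of 13 expressed, 4 were higher and 2 lower than control; the lower count was 4 by edgeR, and 1 without shPtbp1 replicate 2 or control replicate 2, with quantile normalization, with no filter on low values and in the fits of 4 and of 8 libraries. The von Willebrand factor gene Vwf was at 7.12 and 7.496 scaled CPM with shPtbp1 and 9.33 and 8.51 with shNT, against 26.1 and 27.3 with MGT and 26.8 and 27 in control (log2 change -1.81, SE 0.049, limma adjusted p = 3.3e-16), low in both hairpin groups as the macrophage markers were. Pecam1, Emcn and Flt1 rose (0.33, 0.59 and 0.14). Sox17, Sox18 and Cldn5 were below the level rule, Cdh5, the junction protein that defines the type, was not called (27.2 and 28.7 against 29.4 and 30.8; called lower by edgeR), and the calls of Kdr (-0.17) and Egfl7 (0.16) were lost without shPtbp1 replicate 2 or control replicate 2 and in the fits of 4 and of 8 libraries, that of Kdr also with quantile normalization or no filter on low values.
Of 11 epicardial markers, 3 were higher and 7 lower than control, with a median of -0.42. Their sum was 439 and 435 scaled CPM with shPtbp1 and 430.2 and 428 in control. The medians were -0.51 with MGT and 0.0054 with shNT. Against shNT, 3 were higher and 6 lower with shPtbp1, with a median of -0.34. Mesothelin Msln fell from 44.7 and 47.1 to 34.6 and 28.8 and the retinoic acid enzyme Aldh1a2 from 91.95 and 88.4 to 66.3 and 68.1, while Upk1b rose from 36.4 and 36.5 to 62.2 and 61.2, Tcf21 by 0.304 and Wt1 by 0.24 log2 units. Of 5 pericyte markers, 2 were higher and 1 lower, counts that became 1 and 2 without control replicate 1. The higher count was also 1 without shPtbp1 replicate 1 or with no filter on low values, and the lower count also 2 with no scaling factor, with quantile or TMM scaling and by edgeR. Cspg4 was the lower one, at 120.4 and 114 against 136 and 170.4, Abcc9 was higher (0.43), and the call of Notch3 (0.19) was lost without shPtbp1 replicate 1 or control replicate 1 and with no filter on low values.

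The fresh cells give a yardstick from groups outside this comparison, although their libraries shared its scaling and its estimate of the spread. Marker genes of other cell types were also high in the fresh cardiomyocyte libraries. There the listed fibroblast identity genes summed to 7911 and 7938 scaled CPM, against 10256 and 10260 in fresh fibroblasts. The listed endothelial markers summed to 5566 and 5582, against 4626 and 4686. Genes in excess in these libraries can therefore belong to cells other than cardiomyocytes. The 200 genes with the largest excess in fresh cardiomyocytes over fresh fibroblasts held 148 expressed here, of which 96 rose and 30 fell with shPtbp1 against control, with a median of 0.45. The medians with MGT and shNT were 0.31 and 0.39, and the median difference of shPtbp1 from shNT was 0.10, with 57 higher and 24 lower. Of the 200 genes with the largest excess in fresh fibroblasts, 177 were expressed here, and 64 rose and 73 fell with a median of -0.048. These medians depended on the size of the set. With 100 and with 500 genes each way they were 0.59 and 0.17 for the cardiomyocyte genes, and -0.086 and 0.027 for the fibroblast genes. Over all 12709 genes the change with shPtbp1 had a Pearson correlation of 0.095 and a Spearman correlation of 0.011 with the difference of cardiomyocytes from fibroblasts; genes are not independent replicates.

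Some genes of the set in excess in the fresh cardiomyocyte libraries went down. Tfrc, the transferrin receptor, fell from 145 and 148 to 70.1 and 68.6 scaled CPM with 75.99 and 73.9 with shNT, and Syngr1 from 37.8 and 36.1 to 11.6 and 10.4. Among the fibroblast genes, Prelp, a matrix proteoglycan, was highest with shPtbp1: 219 and 223, against 97.7 and 96.6 with shNT, 105 and 121 with MGT and 97.8 and 104 in control, 1.18 log2 units above shNT (SE 0.048, limma adjusted p = 2.1e-12). Abi3bp, another matrix protein, was highest with MGT (398 and 408) and stood at 314 and 308 with shPtbp1 and 111 and 113 in control. The teneurin Tenm4 was at 54.8 and 49.9 with shPtbp1 and 49.2 and 49.98 with MGT, against 28.6 and 25.6 with shNT and 20.8 and 23.2 in control. Siglec1, a macrophage lectin that counted as a fibroblast gene by the fresh libraries, fell from 133 and 134 to 31.4 and 26.2.

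A few genes went one way with MGT alone and the opposite way from there to shPtbp1. They were chosen for that pattern, and their values in MGT and shPtbp1 are given as a description. Mmp12, the macrophage elastase, rose with MGT from 301 and 279 to 540.0 and 524 scaled CPM, was at 173 and 174 with shNT and stood lowest with shPtbp1 at 82.2 and 80.7. Its change was 0.87 log2 units with MGT and -1.83 with shPtbp1, each against control. Itgax, an integrin of dendritic cells and macrophages, rose with MGT (50.8 and 51.03 from 26.3 and 26.2) and was at 20.8 and 20.1 and 18.5 and 17.6 in the hairpin groups. Cd5l, a macrophage survival factor, went from 3.84 and 3.37 to 11.03 and 10.2 with MGT and to 1.91 and 2.34 with shPtbp1. Fat3, an atypical cadherin, was 38.2 and 36.99 with MGT, 37.2 and 34.3 with shNT, 22.5 and 22.1 with shPtbp1 and 16.4 and 19.9 in control; its call against control (0.29) was lost without control replicate 1. The call of Clip4 (-0.23) was lost without shPtbp1 replicate 2 or control replicate 1 and with quantile normalization. That of the relaxin receptor Rxfp1 (0.29) was lost without any 1 of the 4 libraries, with a pseudocount of 0.1 and with no filter on low values.

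In the other order, the sphingomyelinase Smpd3 fell with MGT from 9.99 and 12.03 to 3.35 and 3.59 scaled CPM, was at 15.03 and 13.4 with shNT and at 7.73 and 6.79 with shPtbp1. The endothelial sialomucin Emcn went from 15.5 and 17.9 in control to 9.67 and 10.2 with MGT and to 23.5 and 27.3 with shPtbp1, with 23.3 and 21.8 with shNT. The laminin chain Lamc3 went from 5.23 and 6.604 to 3.13 and 2.71 and then to 11.8 and 10.5. Ctla2a and the collagen-binding integrin Itga11 ended near the control level: 33.97 and 41.2 against 40.3 and 35.99, and 45.7 and 36.9 against 38.7 and 40.1, after 18.9 and 20.1 and 20.96 and 23.9 with MGT. Neither was called against control (limma adjusted p = 0.78 and 0.57), and Itga11 was called without shPtbp1 replicate 2 (0.21). Lrrn4, a mesothelial membrane protein, was 20.4 and 22.3 in control, 9.16 and 9.32 with MGT, 28.5 and 26.7 with shNT and 18.6 and 16.6 with shPtbp1.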

How the data were processed

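Polyadenylated RNA of 12 libraries was sequenced with a stranded kit, per the labels' protocols. The authors deposited 1 table of CPM, which the submitters' processing notes tie to FastQC, TopHat2 2.1.0, HTSeq 0.6.1p1 and the mm10 build. No source used here gives the gene annotation or whether counting used strand, and reads of overlapping or antisense partners therefore cannot be told apart. Column names gave the sample of all 12 columns. Each column summed to 1000000, and 100% of values were whole multiples of 1 read within 0.1 reads, which gave the depths (49320858 to 94005212 reads over the 12 libraries); depth bears on counting error only. In 27 rows the gene name is a number or date, and these rows were tested but not named.

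Dividing each library by its median-of-ratios factor, which ran from 0.960 to 1.07, gave scaled CPM. Log2(scaled CPM + 0.5) of the 13977 genes that reached 1 CPM in 2 or more of the 12 libraries was fitted with limma 3.58.1 (R 4.3.3, eBayes with trend, 1 mean per group, two-sided, threshold 0.05). The fit left 6 residual degrees of freedom, and the spread over all genes tested added 12.3 prior degrees of freedom. For a single gene, 2 libraries against 2 cannot give an exact permutation p below 0.33. The procedure was tested on simulated data. edgeR 4.0.16 on the recovered reads was an alternative, with other scalings, pseudocounts, filters, fits and a replicate block. Each of the 4 shPtbp1 and control libraries was also left out in turn, and no library of another group was.

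The text names Ptbp1 to Ptbp3 and the delivered factors, the 15 largest changes each way at 10 or more scaled CPM without overlap, up to 5 largest and 2 smallest changes per list (30 lists), 6 opposite-step genes each way and 5 per direction of each cell type set of 200; predicted genes are not named, and 1 gene among the largest decreases is not reported here. Where 5 or fewer members of a list were called in a direction, these were also named, after their values were seen. The genes, lists and rules were chosen with earlier results of these data known. Gene positions are from GENCODE M21 (GRCm38, which is mm10), and promoters from RefSeq. Figures used matplotlib 3.10.9.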

Additional observations from a re-analysis of the deposited data

How the results depend on the processing

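Over 18 alternative settings, the counts of genes higher and lower kept within 1.5 times of the reported ones for each comparison of shPtbp1 with control, shNT and MGT, with 1 exception. The 191 genes at least 2-fold higher than control became 102 with a pseudocount of 2. With edgeR on the recovered reads 3813 genes were higher and 4095 lower than control, 261 and 615 of them at least 2-fold. Leaving out 1 of the 4 shPtbp1 and control libraries gave 3774 to 3913 genes higher and 3266 to 3513 lower than control. The deviations of same-numbered shPtbp1 and control libraries had a correlation of -0.076 across genes. With 2 libraries per group, that value cannot show whether same-numbered libraries were paired. With the replicate block 4156 genes were higher and 3709 lower than control.

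Of 4781 values for the 266 genes named, 4677 kept direction and side of the threshold, 90 lost the call, 14 gained it and 0 reversed. Of the 225 called, 204 kept the call in each setting. Of 1160 counts per list or cell type set, 1114 stayed within 1.5 times. No scaling moved the median change of the 12709 genes by more than 0.026 log2 units. The fit of the 4 libraries was not run for the comparisons with shNT and MGT, which need other libraries. Depth limits genes near 1 CPM, and 2 libraries per group limit every test.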

Other observations

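Genes of neurons were few among those expressed: 11 of 25 listed passed the level rule, and 5 were higher and 3 lower with shPtbp1 than in control. The GABA-B receptor subunit Gabbr1 was highest with shPtbp1, at 67.3 and 62.9 scaled CPM against 36.6 and 36.7 with shNT, 29.4 and 27.7 with MGT and 30.6 and 30.3 in control. The excess over shNT was 0.82 log2 units (SE 0.046, limma adjusted p = 1.8e-10). The cell adhesion molecule Ncam1 and the synaptic scaffold Dlg4 were also above shNT (0.51 and 0.33), and the vesicle GTPase Rab3a and Tagln3 rose against control (0.95 and 0.48, the latter not called without control replicate 2). The adhesion molecule L1cam (-0.98) and Map2 (-0.24) fell, and the tubulin Tubb3 fell from 69.2 and 64.8 to 35.1 and 34.2. Map2 was highest with shNT (27.1 and 27.8), with 16.8 and 16.8 with shPtbp1. The repressor of neuronal genes Rest was not called (44.4 and 39.2 against 42.3 and 47.5), and it was called without shPtbp1 replicate 1 (-0.19) or without control replicate 1 (-0.18).

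Of 25 Polycomb genes, which keep developmental genes silent, 12 were higher and 2 lower than control, with a median of 0.14 (-0.012 with MGT and 0.12 with shNT). Pcgf2 rose from 30.6 and 29.8 to 46.5 and 49.2 scaled CPM and Bmi1 from 39.5 and 38.2 to 48.5 and 49.5, while Suz12 and Phf19 fell (-0.26 and -0.63) and Ezh2, the methyltransferase, was not called (25.9 and 24.7 against 25.9 and 24.1). Of 24 p53 and CDK inhibitor genes, 10 were higher and 5 lower, the latter Cdkn2b (-0.42), Bbc3 (-0.58), Plk2 (-0.51), Plk3 (-0.24) and Pmaip1 (-0.19), whose call was lost without shPtbp1 replicate 1 or control replicate 2, with quantile normalization and in the fit of 4 libraries. Ccng1 rose from 483 and 474 to 656 and 663, while the polo-like kinase Plk2 was at 63.7 and 64.6 against 104 and 98.9 with shNT and 88.9 and 94.1 in control. Of the lymphocyte and the neural crest lists 1 gene each was expressed: Cd4, which mouse macrophages can also carry, fell (-1.79) and the nerve growth factor receptor Ngfr rose (0.399) against control.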
